A study of Mus musculus with 5 samples.

Results

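Glycolysis and the cellular response to low oxygen were examined with 35 genes in prostate tumors of mice that had or had not been castrated. The genes were picked by symbol, from a list of glycolytic steps and known hypoxia targets, and the rule used no measured value. Earlier results of these data were known when the list was chosen. All 35 were among the 24527 genes of the count table, and all 35 were among the 14612 genes abundant enough to be tested. They were divided into 22 genes of glycolytic steps (glucose entry, the enzymes, lactate formation and transport), 3 regulators of glycolytic flux and 10 genes of oxygen sensing or hypoxia targets outside glycolysis.

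RNA was sequenced in bulk from prostate tumors of TripleTg mice (hHGFtg:H11hMET/+:Ctnnb1L(Ex3)/+:PBCre4). Every mouse of both groups carried the human HGF transgene, which is expressed ubiquitously, a human MET transgene placed behind a stop cassette at the H11 locus, and a Ctnnb1 allele that yields stabilized β-catenin once exon 3 is removed. The MET and β-catenin alleles are switched on by Cre under the probasin promoter, so in prostate epithelial cells and their descendants. Castration of 3 of the mice took place at 4 months of age, and their tumors were taken at 8 months together with those of 2 intact mice of matched genotype and age. Mice of the study were on a mixed C57BL/6 and C3H SCID background. The castrated libraries held 28015507, 18951782 and 20492061 counts (replicates 1 to 3), and the intact libraries 21560355 and 22853501.

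Glycolysis splits glucose into pyruvate in the cytosol, and lactate dehydrogenase together with monocarboxylate transporters lets a cell run it without oxygen. When oxygen falls, prolyl hydroxylases of the EGLN family stop marking the hypoxia-inducible factors HIF1α (Hif1a) and HIF2α (Epas1) for degradation, and the stabilized factors raise transcription of most glycolytic genes, of glucose transporters and of targets such as Car9, Bnip3 and Adm. Most of this control acts on HIF protein, which RNA-seq does not measure. Prostate luminal cells are known for a metabolism built around citrate secretion under androgen control.

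The 2 intact samples differed from each other before any glycolytic gene was considered. Intact replicate 2 contained abundant prostate secretory RNA, with Tgm4 at 1343 CPM (counts scaled to library size with TMM factors). In intact replicate 1 Tgm4 was at 0.224 CPM and Pbsn, the probasin gene itself, at 0 counts, which allows up to 0.134 CPM. The 3 castrated samples were also low in Tgm4, at 0.418, 0.0536 and 0.0481 CPM. Thus Tgm4 and Pbsn were nearly absent from every sample except intact replicate 2, and Msmb was at 0 counts in all 5. Summed over the 10 markers of the secretory list, of which Tgm4 was the most abundant, CPM was 324, 382 and 456 in castrated tumors and 349 and 2696 in intact tumors. Tmprss2, another luminal gene, was present in all samples (165 to 304 CPM). General epithelial genes such as Krt18 (628 to 1108 CPM) and Krt8 (659 to 1154 CPM) were likewise abundant in all 5. Across the 14612 tested genes, log2 CPM of intact replicate 1 correlated more closely with castrated replicate 1 (Pearson's r = 0.937 across genes, which are not independent replicates) than with intact replicate 2 (0.865). For this reason the medians and the members described most closely are also given without each intact sample.

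Other cell types were represented unequally as well. The 10 adipocyte markers summed to 63.5, 719 and 664 CPM in castrated replicates 1, 2 and 3, and to 51.8 and 98.5 CPM in the intact samples. Fabp4 was the most abundant of them, all 10 were higher in the castrated group and 6 reached an unadjusted p under 0.05 by edgeR. Lep and Cfd had 0 counts in both intact samples, Adipoq and Cidec in intact replicate 1, and Plin1 and Retn in intact replicate 2. Lep also had 0 counts in castrated replicate 1. The 10 macrophage markers, led by Lyz2, summed to 2991, 8862 and 3580 CPM against 1299 and 1946 CPM, with none at 0. Smooth muscle markers (8 genes, led by Tagln, none at 0) summed to 422, 755 and 705 CPM against 251 and 163 CPM. The 9 epithelial markers, led by Krt18 and with none at 0, had their highest sum in intact replicate 1, at 6282 CPM against 3945 to 4837 CPM in the other samples. Of the 9, 6 were highest there, while the basal keratin genes Krt5 and Krt14 were lowest there, at 28.9 and 14.3 CPM against 404 and 139 CPM in intact replicate 2. The 8 endothelial markers, led by Cdh5 and with none at 0, summed to 454, 312 and 367 CPM against 478 and 209 CPM. Red blood cell markers (7 genes, led by Hbb-bs) summed to 2056, 113 and 63.2 CPM against 6.76 and 196 CPM. Skeletal muscle markers were near 0 throughout, with sums of 4.22 to 7.89 CPM. Since the tissue was measured in bulk, fewer cells of a type and less RNA per cell cannot be told apart.

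By edgeR's quasi-likelihood test, no gene of the set and no gene of the whole table differed between castrated and intact tumors after adjustment. With edgeR's quasi-likelihood test and Benjamini-Hochberg adjustment, 0 of 35 members were called at an adjusted p under 0.05 with an absolute log2 fold change above 1, against 0% of all genes tested, and the smallest adjusted p was 0.303 among members and 0.289 among all genes. At an unadjusted p under 0.05, 2 members (5.71%) were higher in castrated tumors, where 8.74% of all genes were, and 1 member (2.86%) was lower, where 6.28% of all genes were. The castrated samples all lay above both intact samples for 2 members (5.71%), against a background of 17.0%, and all below for 5 members (14.3%), against 16.2%. Thus none of these shares exceeded that of the table as a whole. DESeq2 and the edgeR likelihood ratio test called 989 and 369 genes of the table, and no member. The study itself reports genes that differed between castrated and intact tumors, and its list was not compared with these calls.

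Most point estimates were on the lower side, 26 of 35 members against 52.1% of all genes tested. The median log2 fold change, castrated against intact, was -0.31 over the 35 members and -0.03 over all genes. It was -0.19 for the 22 glycolytic step genes, -0.29 for the 3 flux regulators and -0.46 for the 10 genes of oxygen sensing and other hypoxia targets. The sign of the glycolytic and hypoxia medians changed without intact replicate 1. They were then 0.29 and 0.30, and 15 members changed sign. Without intact replicate 2 the glycolytic and hypoxia medians were -0.46 and -0.87. The flux regulator median was -0.0 without intact replicate 1, -0.46 without intact replicate 2 and -0.61 without castrated replicate 2. With all samples, limma-trend on log2(TPM + 1) gave a glycolytic median of 0.01 and a hypoxia median of -0.35.

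**Figure D1:**
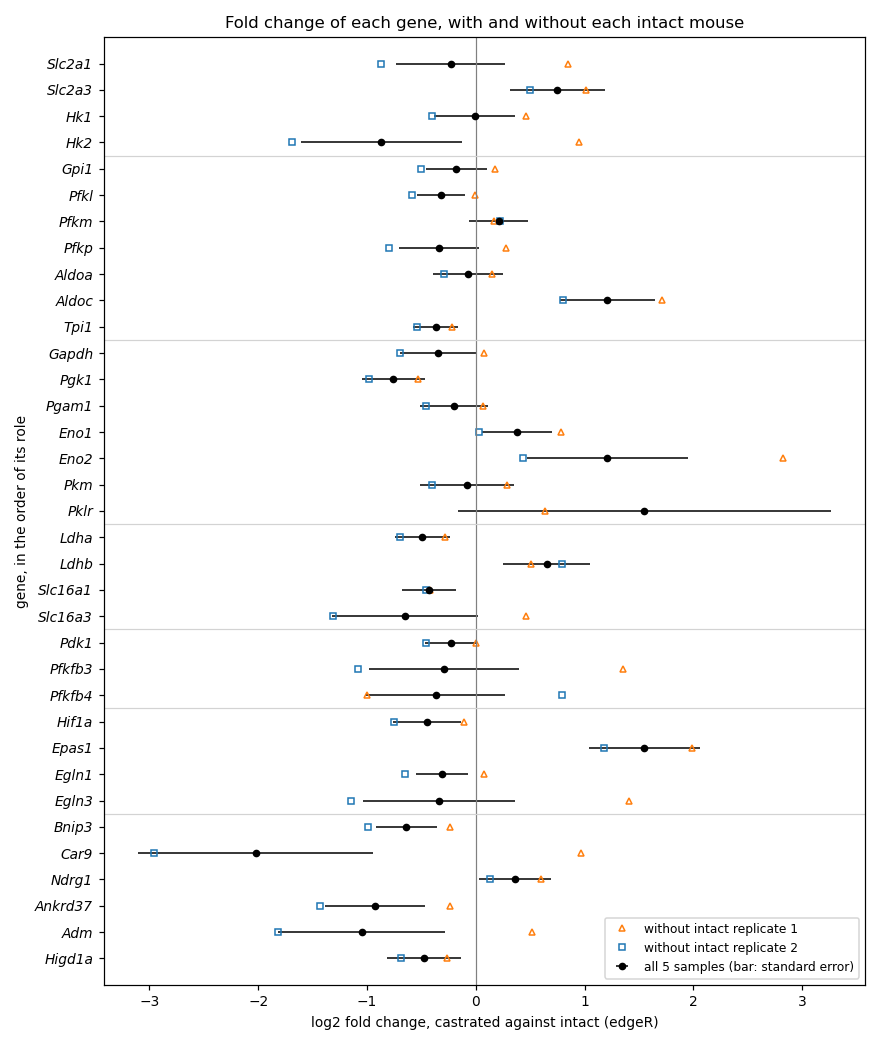
Log2 fold change of each of the 35 genes (castrated against intact, edgeR), in order of role, with all 5 samples (black, bar: standard error) and without intact replicate 1 (orange) or intact replicate 2 (blue). For 15 genes, among them Hk2, Pfkfb3, Egln3 and Car9, the estimate changes sign without intact replicate 1, while Aldoc, Epas1 and Pgk1 keep theirs; where markers coincide, the black point is on top.

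The highest levels of most of these genes were found in a single tumor. Intact replicate 1 was the highest of the 5 samples for 22 of 35 members (62.9%), while it was the highest for 20.9% of all genes tested. The count was 12 of 22 among glycolytic steps, 2 of 3 among flux regulators, 3 of 4 in oxygen sensing and HIF, and 5 of 6 among hypoxia targets outside glycolysis. For 7 members it exceeded every other sample by more than 1.5-fold, compared with 4.48% of all genes. Intact replicate 2 was the highest for only 2 members, Slc16a1 and Pfkfb4, although it was the highest for 31.3% of all genes. The intact samples differed 2-fold or more for 12 of 35 members, a share near the 31.4% of all genes tested. The 35 members summed to 6963, 7336 and 5760 CPM in the castrated tumors and to 9369 and 5985 CPM in the intact tumors. The castrated tumors thus lay between or just below the intact pair, and the groups overlapped. Of the 9 epithelial markers 6 were also highest in intact replicate 1, Krt5 and Krt14 were lowest there, and the part of epithelial content in this pattern was not tested.

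**Figure D2:**
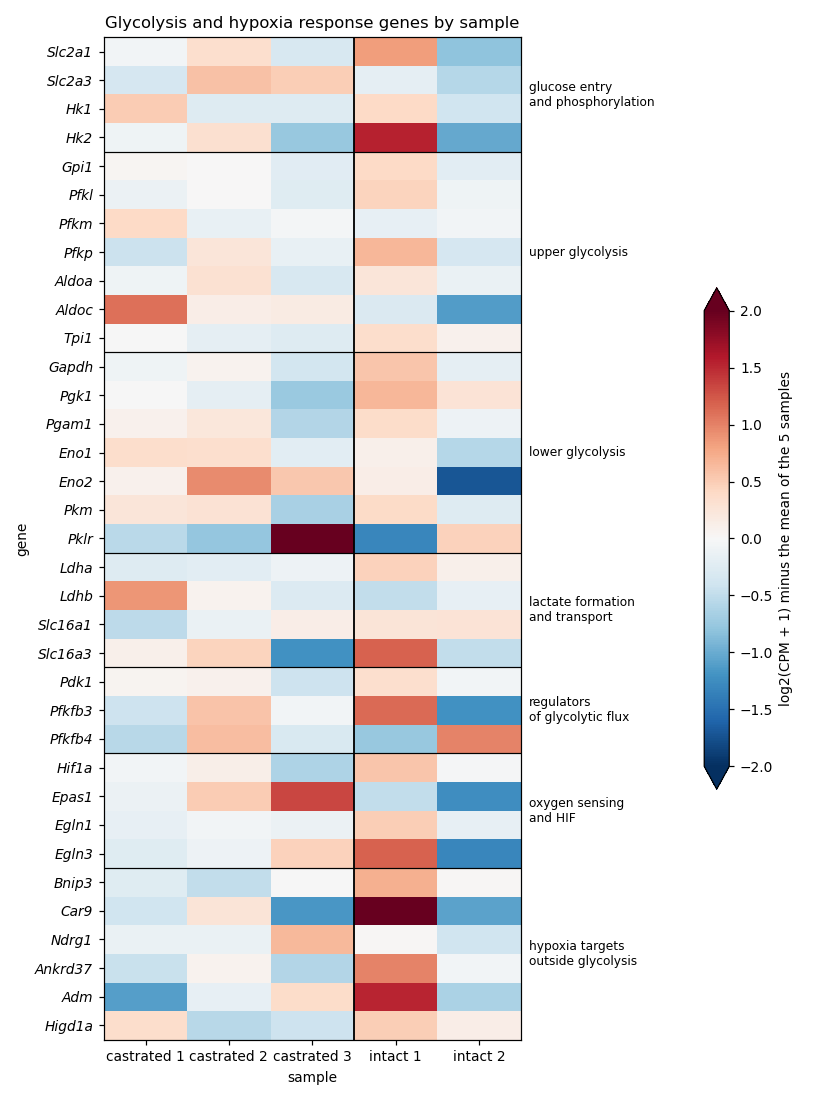
Each row is 1 of the 35 genes and each column 1 mouse, with color giving log2(CPM + 1) minus the mean of the 5 samples; values beyond 2 in either direction take the end colors. The column of intact replicate 1 is the reddest in 22 rows, and castrated replicate 3 and intact replicate 2 hold most of the lowest values (13 and 11 rows).

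Promoter sequence was examined as a description of the members. The list was made from glycolytic steps and known hypoxia targets, so its motif shares do not bear on which tumor was highest. Members highest in intact replicate 1 were not compared with the other members. HIF binds a short core that is usually written with A or G before CGTG, so ACGTG and GCGTG were each searched on both strands in the 250 bases before the annotated start. RefSeq windows (GRCm38.p6, the build called mm10) matched the deposited gene start for 28 of the 35 members and for 17444 genes of the table. ACGTG was present in 13 of 28 members (46.4%) and in 17.9% of all windows. GCGTG was present in 15 of 28 members (53.6%) and in 34.2% of all windows. By branch, ACGTG was found in 7 of 18 glycolytic step genes, 1 of 3 flux regulators and 5 of 7 other hypoxia genes. A match is a description of the letters and not a binding site, no protein binding was measured, and the motif, the window and the genes shown were chosen after matches had been seen. The windows of Pgk1, Ldha and Car9 (lower in castrated tumors as point estimates with all 5 samples) and of Aldoc (higher) are printed 5′ to 3′ on the gene's strand, ending at the base before the start, with ACGTG or its reverse complement CACGT in capitals.
Pgk1, chrX:106186850-106187099 (+): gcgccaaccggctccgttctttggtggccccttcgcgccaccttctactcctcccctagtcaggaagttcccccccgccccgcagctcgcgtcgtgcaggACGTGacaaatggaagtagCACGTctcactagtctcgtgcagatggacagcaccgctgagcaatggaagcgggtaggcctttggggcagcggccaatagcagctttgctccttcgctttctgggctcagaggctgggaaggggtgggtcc
Ldha, chr7:46845554-46845803 (+): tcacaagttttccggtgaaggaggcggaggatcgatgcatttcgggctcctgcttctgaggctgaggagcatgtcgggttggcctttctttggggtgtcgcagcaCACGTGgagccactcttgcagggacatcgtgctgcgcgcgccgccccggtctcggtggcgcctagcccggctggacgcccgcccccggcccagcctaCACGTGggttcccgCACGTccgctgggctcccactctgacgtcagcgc
Car9, chr4:43506776-43507025 (+): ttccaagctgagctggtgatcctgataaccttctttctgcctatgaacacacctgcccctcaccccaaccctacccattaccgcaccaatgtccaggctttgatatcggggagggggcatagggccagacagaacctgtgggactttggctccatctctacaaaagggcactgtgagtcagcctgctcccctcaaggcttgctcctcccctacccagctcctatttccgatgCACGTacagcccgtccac
Aldoc, chr11:78322823-78323072 (+): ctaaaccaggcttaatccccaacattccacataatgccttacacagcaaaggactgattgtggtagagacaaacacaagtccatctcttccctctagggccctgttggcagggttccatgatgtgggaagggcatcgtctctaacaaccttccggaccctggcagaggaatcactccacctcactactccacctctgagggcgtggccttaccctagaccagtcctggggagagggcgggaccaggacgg
Pgk1 held matches that began 150 and 131 bases before the start. In Ldha the palindrome CACGTG, which reads as ACGTG on either strand, occurred at 145 and 48 bases, and a further match began 34 bases before the start. Car9 held a match 18 bases before the start. Aldoc held no ACGTG in this window, and it did hold GCGTG. The printed windows do not stand for all members. Pfkm, higher as a point estimate, held ACGTG, while Tpi1, Gpi1 and Aldoa, lower as point estimates, held neither motif.

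Glucose enters through the transporters GLUT1 (Slc2a1) and GLUT3 (Slc2a3) and is trapped by hexokinase. Levels between genes are compared here per gene length, as TPM (counts per kilobase of gene, scaled to a common total per sample). Slc2a1 was the most abundant of these 4 genes at a mean of 96.6 TPM over the 5 samples, and Slc2a3 the least at 5.02 TPM. Slc2a1 was measured at 94.4, 124 and 77.9 CPM in castrated replicates 1, 2 and 3, and at 176 and 55.7 CPM in intact replicates 1 and 2. Both extremes were intact samples, and the log2 fold change was -0.23 ± 0.50 (SE) with an adjusted p of 0.858 by edgeR. It was 0.85 without intact replicate 1 and -0.87 without intact replicate 2. Hk2, the hexokinase isozyme typical of glycolytic tumors, had the same shape at 81.1, 107 and 50.6 CPM against 251 and 41.9 CPM, a 5.98-fold gap between the intact mice. The ubiquitous isozyme Hk1 was at 229, 134 and 134 CPM against 213 and 122 CPM, and its log2 fold change was -0.01. As a share of the TPM of Hk1 and Hk2, Hk2 made up 22.5%, 39.6% and 23.6% in castrated tumors and 49.0% and 21.9% in intact tumors, so the share did not separate the groups. Hk3, a hexokinase known from myeloid cells and outside the 35 members, was at 6.78, 73.0 and 32.6 TPM in castrated and at 3.78 and 4.77 TPM in intact tumors. It was highest in castrated replicate 2, where the macrophage marker sum was also highest, and the part of macrophages in Hk3 was not tested. Hk1, Hk2, Hk3, Tpi1, Eno1, Eno1b, Eno2, Slc16a1, Car9, Adm and Ndrg1 are given in every sample although they fell outside the rule for this, after their values had been seen.

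In upper glycolysis Aldoc was the sole gene at an unadjusted p under 0.05. Aldoc, an aldolase isozyme best known from the brain, was the clearest glycolytic gene on the higher side. It was measured at 191, 97.0 and 99.3 CPM in castrated replicates 1, 2 and 3 and at 72.1 and 40.0 CPM in the intact samples. All 3 castrated samples lay above both intact ones, and the log2 fold change of 1.21 ± 0.44 (SE) had an unadjusted p of 0.0373 and an adjusted p of 0.316 by edgeR. Without intact replicate 1 it was 1.71, and without intact replicate 2 it was 0.80 (unadjusted p = 0.176 by edgeR). Without castrated replicate 1, the highest sample, it was 0.82 (unadjusted p = 0.073 by edgeR). Aldoa, the main aldolase and the most abundant upper glycolytic gene (1021 TPM against 81.4 TPM for Aldoc), was at 748, 987 and 636 CPM against 940 and 723 CPM, with the groups overlapping. Aldoa made up 86.1%, 94.1% and 91.0% of aldolase A and C TPM in castrated tumors and 95.4% and 96.6% in intact tumors. The shares did not overlap, and the exact permutation test gave p = 0.2, the smallest that 3 against 2 samples allow (adjusted p = 0.533 over 8 shares). The difference of -5.59 percentage points was -6.21 without intact replicate 1, -4.97 without intact replicate 2 and -3.42 without castrated replicate 1, the lowest sample. The other 5 genes of the upper pathway, Gpi1, Pfkl, Pfkm, Pfkp and Tpi1, had log2 fold changes between -0.37 and 0.21, with unadjusted p of 0.138 or more by edgeR. Among them Tpi1, the isomerase that joins the arms of the split sugar, was lower in every castrated sample (361, 323 and 305 CPM) than in either intact sample (466 and 389 CPM).

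Lower glycolysis contained the sole member that was lower at an unadjusted p under 0.05. Pgk1, phosphoglycerate kinase, which makes the first ATP of the pathway, was at 297, 263 and 179 CPM in castrated replicates 1, 2 and 3, and at 474 and 360 CPM in the intact samples. Every castrated sample lay below both intact samples. The log2 fold change was -0.76 ± 0.29 (SE), with an unadjusted p of 0.0446 and an adjusted p of 0.328 by edgeR. It was -0.53 without intact replicate 1 (unadjusted p = 0.183 by edgeR) and -0.98 without intact replicate 2. The unadjusted p of Pgk1 by edgeR was 0.125 without castrated replicate 3 and 0.0966 without castrated replicate 2. With library size scaling it was 0.0572 and with the likelihood ratio test 0.0771. Its promoter window is among those printed above. Gapdh, the dehydrogenase of the pathway and the most abundant member of all (mean 1429 TPM), was at 853, 944 and 698 CPM against 1321 and 799 CPM. Intact replicate 1 was again the highest and intact replicate 2 lay inside the castrated range, so Gapdh did not separate the groups (log2 fold change -0.35 ± 0.35 SE). Pkm, pyruvate kinase, was the second most abundant lower glycolytic gene by TPM and spanned 623 to 1193 CPM in castrated and 821 to 1270 CPM in intact tumors. Pgam1 (phosphoglycerate mutase) had a log2 fold change of -0.20. Pklr, the liver and red cell pyruvate kinase, was low everywhere and reached 11.6 CPM only in castrated replicate 3, against 0.134 to 2.87 CPM in the other 4 samples.

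The enolase counts had a feature of their own, found after the values had been seen. Eno1, enolase, was higher as a point estimate in castrated tumors (506, 503 and 344 CPM against 429 and 267 CPM), while Eno1b, a near-identical retrogene copy listed separately, was lower (30.1, 30.3 and 20.5 CPM against 64.5 and 37.6 CPM). The ratio of Eno1 to Eno1b counts was 16.8, 16.6 and 16.8 in the castrated samples and 6.65 and 7.10 in the intact samples. Within each group the ratio hardly varied although the level did, and between groups it did not overlap. The labels do not give the strain alleles of each mouse, and the source of the ratio was not tested. Reads of such copies can be divided between them in mapping, and the counts of both are therefore uncertain. Eno1 and Eno1b together were at 536, 533 and 365 CPM against 493 and 304 CPM. Eno2, the neuronal enolase, was at 8.78, 16.8 and 12.3 CPM against 9.13 and 1.81 CPM, and its log2 fold change was 1.21 ± 0.74 (SE), with an unadjusted p of 0.161 by edgeR. It was 2.82 without intact replicate 1 (unadjusted p = 0.00638 by edgeR) and 0.43 without intact replicate 2. The 10 neuroendocrine and neuronal markers, with Uchl1 the most abundant by length and none at 0, summed to 56.9, 62.2 and 76.3 CPM against 62.9 and 46.2 CPM. The sums overlapped, and for 6 of the 10 markers (60.0%, against 17.0% of all genes) every castrated sample lay above both intact samples. Chga, chromogranin A, was at 4.43, 5.30 and 6.45 CPM in castrated and 0.0895 and 0.185 CPM in intact tumors, with an unadjusted p of 0.000225 and an adjusted p of 0.289 by edgeR. Chgb, Syp and Syn1 were also higher at an unadjusted p under 0.05, and the part of such cells in the Eno2 and Aldoc values was not tested.

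In lactate formation Ldha and the transporter gene Slc16a1 were lower in every castrated sample. Ldha, the lactate dehydrogenase subunit that favors lactate, was at 537, 553 and 594 CPM in castrated replicates 1, 2 and 3, and at 886 and 691 CPM in the intact samples. The castrated samples were close together and all lay below both intact samples. The log2 fold change was -0.49 ± 0.25 (SE), with an unadjusted p of 0.111 by edgeR, and it was -0.28 without intact replicate 1 and -0.70 without intact replicate 2. Ldhb, the subunit of oxidative tissues, had the opposite sign at 70.4, 39.6 and 31.2 CPM against 26.5 and 33.5 CPM, with castrated replicate 3 inside the intact range. Ldha thereby made up 83.7%, 90.4% and 92.8% of the TPM of the pair in castrated tumors, and 95.8% and 93.3% in intact tumors. These shares did not overlap but lay close together, with p = 0.2 in the exact permutation test and an adjusted p of 0.533 over 8 shares. The difference of -5.56 percentage points was -2.94 without castrated replicate 1. Among the lactate transporters, MCT1 (Slc16a1) was lower in every castrated sample, at 33.6, 44.3 and 53.4 CPM against 58.6 and 59.4 CPM. MCT4 (Slc16a3), the export form known as a hypoxia target, varied from 15.8 to 51.8 CPM in castrated and from 26.5 to 86.8 CPM in intact tumors.

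**Figure D3:**
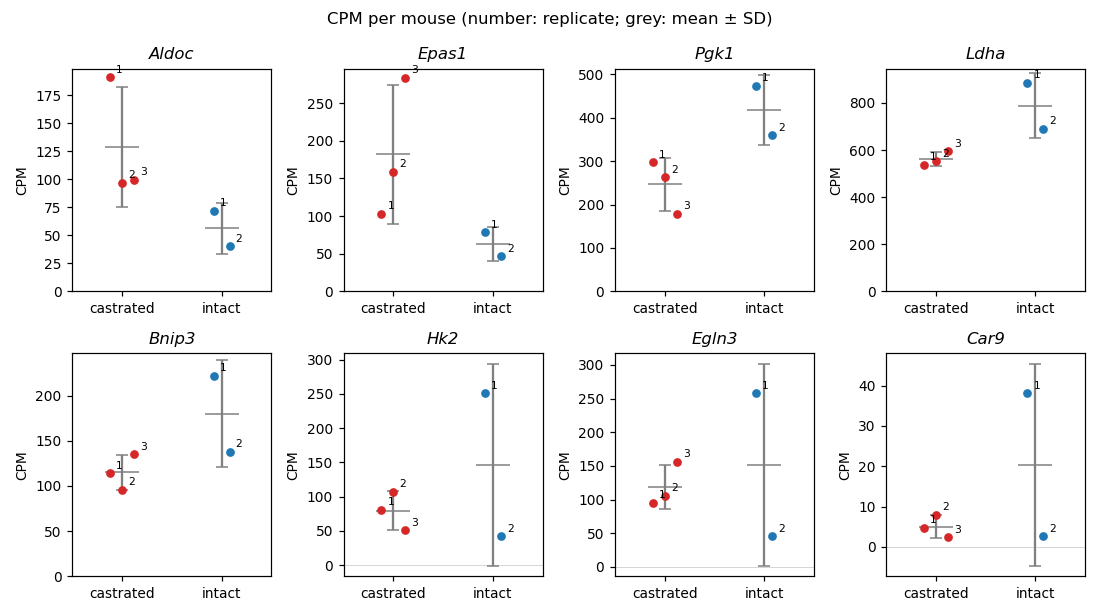
CPM of 8 genes in each mouse (red: castrated, blue: intact, number: replicate, grey: mean ± SD of 3 castrated or 2 intact mice). Aldoc and Epas1 lie higher and Pgk1, Ldha and Bnip3 lower in all castrated mice, whereas in Hk2, Egln3 and Car9 intact replicate 1 stands above and intact replicate 2 lies within or below the castrated range.

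**Figure D4:**
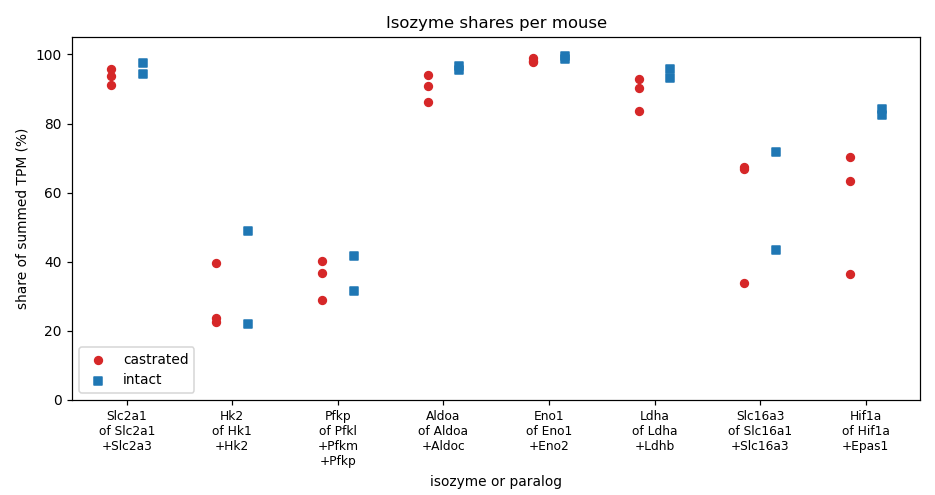
Share of summed TPM (%) that the first gene takes in each isozyme or paralog set, per mouse (red circles: 3 castrated, blue squares: 2 intact). The groups do not overlap for Aldoa (86.1 to 94.1% against 95.4 and 96.6%), Ldha (83.7 to 92.8% against 95.8 and 93.3%) and Hif1a (36.5 to 70.3% against 82.6 and 84.3%), and they overlap for the other 5 shares.

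The regulators of flux differed more between the intact mice than between groups. Pfkfb3 makes fructose 2,6-bisphosphate, the activator of phosphofructokinase, and was at 71.7, 143 and 92.0 CPM in castrated tumors and at 211 and 40.7 CPM in intact tumors. The intact pair enclosed the castrated values, and the log2 fold change of -0.29 became 1.35 without intact replicate 1 and -1.08 without intact replicate 2. Pfkfb4, its paralog, had the reverse order, with 11.0 CPM in intact replicate 1 and 39.6 CPM in intact replicate 2. Pdk1, the kinase that holds pyruvate back from the mitochondrion, was at 57.9 to 81.8 CPM in castrated and at 74.4 to 98.1 CPM in intact tumors.

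Of the HIF subunits, Epas1 separated the groups and Hif1a did not. Epas1, which encodes HIF2α, was at 103, 159 and 284 CPM in castrated replicates 1, 2 and 3 and at 78.7 and 46.6 CPM in the intact samples. All castrated samples exceeded both intact samples, and castrated replicate 3 was far above the rest. The log2 fold change was 1.55 ± 0.51 (SE), with an unadjusted p of 0.0276, the smallest of the 35 members, and an adjusted p of 0.303 by edgeR. It was 1.99 without intact replicate 1 and 1.18 without intact replicate 2 (unadjusted p = 0.136 by edgeR). Without castrated replicate 3 it was 1.07 (unadjusted p = 0.0476 by edgeR), and without castrated replicate 2 the unadjusted p was 0.053. Hif1a was at 226, 254 and 152 CPM against 345 and 231 CPM, with castrated replicate 2 above intact replicate 2. Hif1a therefore made up 70.3%, 63.3% and 36.5% of the TPM of the pair in castrated tumors and 82.6% and 84.3% in intact tumors. The shares did not overlap, and the difference of -26.7 percentage points had p = 0.2 in the exact permutation test (adjusted p = 0.533 over 8 shares). It was -27.6 without intact replicate 1, -25.9 without intact replicate 2 and -16.6 without castrated replicate 3, the lowest sample. HIF2α is known from endothelial cells, adipocytes and macrophages as well as from tumor cells. Adipocyte marker sums were high in castrated replicates 2 and 3 and low in castrated replicate 1, macrophage sums were higher in all 3 castrated samples, and endothelial sums overlapped between groups. That overlap came with Cdh5 at 227 CPM in intact replicate 1, while 6 of 8 endothelial markers were higher and Pecam1, Kdr and Tek lay above both intact samples in every castrated sample (37.5% of the list, against 17.0% of all genes). The part of these cell types in the Epas1 result was not tested.

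The prolyl hydroxylases that respond to HIF followed the intact replicate pattern. Egln3, the most abundant gene of oxygen sensing (mean 117 TPM), was at 95.2, 106 and 156 CPM in castrated tumors and at 258 and 45.4 CPM in intact tumors. The castrated samples lay between the intact pair. Its log2 fold change of -0.34 ± 0.70 (SE) became 1.41 without intact replicate 1 and -1.15 without intact replicate 2. Egln1, the main oxygen sensor, was nearly constant at 83.5 to 90.7 CPM in 4 samples and 133 CPM in intact replicate 1.

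For the 6 hypoxia targets outside glycolysis the median was -0.79 on the log2 scale, and it was 0.14 without intact replicate 1 and -1.21 without intact replicate 2. Bnip3, a mitophagy receptor, was at 114, 95.6 and 135 CPM in castrated tumors and at 222 and 138 CPM in intact tumors. The castrated samples lay below both intact samples, but castrated replicate 3 and intact replicate 2 differed by little. The log2 fold change was -0.64 ± 0.28 (SE), with an unadjusted p of 0.0671 and an adjusted p of 0.356 by edgeR, and it was -0.24 without intact replicate 1 and -0.99 without intact replicate 2. Car9, the tumor carbonic anhydrase often used as a hypoxia marker, was at 4.74, 7.98 and 2.36 CPM against 38.1 and 2.59 CPM. Its level in intact replicate 1 was 14.7 times that in intact replicate 2, and intact replicate 2 lay within the castrated range. The log2 fold change of Car9, -2.02 ± 1.08 (SE), became 0.97 without intact replicate 1 and -2.96 without intact replicate 2. Adm, the vasodilator adrenomedullin, was at 5.65, 11.8 and 17.5 CPM against 40.3 and 8.29 CPM. Ankrd37 was likewise highest in intact replicate 1, at 19.7 CPM against 5.92 to 9.91 CPM elsewhere. Ndrg1 was the sole target on the higher side, at 112, 112 and 195 CPM against 125 and 93.7 CPM, and Higd1a, a mitochondrial survival protein, had a log2 fold change of -0.48.

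Other genes of these pathways were taken from lists of 81 genes, of which 76 were tested. By edgeR, 0 passed the adjusted threshold, while 8 (10.5%) were higher and 7 (9.21%) lower at an unadjusted p under 0.05, beside 8.74% and 6.28% of all genes. In 25 further hypoxia targets 2 were higher and 5 lower, and intact replicate 1 was the highest sample for 11 (44.0%). Vegfa, the angiogenic growth factor, was at 118, 124 and 65.7 CPM in castrated tumors and at 333 and 157 CPM in intact tumors. The groups did not overlap for Vegfa (log2 fold change -1.26 ± 0.42 SE, unadjusted p = 0.029, adjusted p = 0.309 by edgeR), and the change was -0.59 without intact replicate 1 and -1.74 without intact replicate 2. Tfrc, the transferrin receptor, had the smallest unadjusted p of these lists, 0.000965 by edgeR, with 78.0, 71.1 and 47.5 CPM against 201 and 220 CPM. Here the intact samples were close together and far above the castrated ones, and the log2 fold change was -1.68 ± 0.26 (SE), -1.72 without intact replicate 1 and -1.66 without intact replicate 2.

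On the higher side, Hmox1, the heme-degrading oxygenase, was at 351, 238 and 80.3 CPM in castrated and at 34.0 and 19.6 CPM in intact tumors, with a log2 fold change of 3.06 ± 0.71 (SE) and an adjusted p of 0.289 by edgeR. Without intact replicate 1 it was 3.53 and without intact replicate 2 it was 2.67. Macrophage sums were higher in all 3 castrated samples, red blood cell sums were highest in castrated replicate 1 and next in intact replicate 2, and the part of these cells in the Hmox1 result was not tested. Pdgfb, a growth factor for pericytes, was at 21.4, 65.3 and 36.3 CPM against 17.4 and 12.3 CPM. Tfrc and Hmox1 are also iron and heme genes, as background, and are induced by signals other than hypoxia.

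Among the genes of neighbouring pathways, Pck1 was carried by few samples. Pck1, the gluconeogenic carboxykinase that adipocytes also use, was at 0.209, 20.6 and 21.8 CPM in castrated replicates 1, 2 and 3 and had 0 counts in both intact samples, which allows up to 0.134 and 0.139 CPM. Castrated replicates 2 and 3 were those with high adipocyte markers, whose part in the Pck1 result was not tested. Pfkfb2 was lower, at 8.68, 16.3 and 13.2 CPM against 18.3 and 53.4 CPM (log2 fold change -1.49 ± 0.53 SE, unadjusted p = 0.0339 by edgeR). The change in Pfkfb2 was -2.05 without intact replicate 1 and -0.56 without intact replicate 2. Among 10 genes of the pyruvate dehydrogenase complex and its regulators, 9 other HIF pathway components and 7 pentose phosphate genes, 1 was past the unadjusted threshold by edgeR, Pgd, named after its value was seen, at 137, 193 and 137 CPM against 87.7 and 99.4 CPM.

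Proliferation markers moved with the groups more evenly than the glycolytic genes. The 10 markers, led by Top2a, summed to 67.2, 92.8 and 123 CPM in castrated and 296 and 389 CPM in intact tumors, and all 10 were lower at an unadjusted p under 0.05 by edgeR. Intact replicate 2 had the highest proliferation sum, while its sum over the 35 members was below that of castrated replicates 1 and 2. The part of proliferation in the glycolytic values was not tested.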

How the data were processed

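Prostate tumor RNA of 3 castrated and 2 intact TripleTg mice was sequenced as ribosomal RNA-depleted paired-end libraries. Per the labels and the study's methods, the authors used Trimmomatic 0.39 for trimming, STAR 2.7.9 for alignment to mm10 and HTSeq 2.0.2 for counting, and they deposited raw counts per gene, without normalization. The deposited table also holds a gene length in kilobases and other annotation, and this length was used for TPM. The strand setting of the counting was not given in the sources used here, so reads of Tpi1, Pfkm, Pfkp, Hk1, Car9 and Ankrd37 cannot be told apart from those of a gene overlapping on the other strand. Several glycolytic genes also have processed pseudogenes.

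Genes above 1 CPM in 2 or more samples were tested in edgeR 4.0.16 (R 4.3.3, TMM scaling, quasi-likelihood F-test, Benjamini-Hochberg over 14612 genes). The test, filter and thresholds are those of the study's methods, which name TPM as input, whereas the test needs counts. Those methods also name another edgeR version. The study reports differing genes from this comparison, whereas this test called none here, and the source of the difference was not tested. Standard errors were derived from F (size of the log2 change over the root of F). Isozyme shares were compared with a two-sided exact permutation test (scipy 1.17.1). Common dispersion was 0.238. No pair of samples within a group was the same library (chi-square per gene 133 or more). Labels give separate samples, and p-values set the difference between groups against the spread between samples of a group.

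The 35 members, the pathway and marker lists and the tests were chosen with earlier results of these data known. Values in every sample are given for members with an unadjusted p under 0.05, for those whose groups do not overlap with an absolute log2 fold change above 0.5, for the most abundant member of each role by TPM, and for both genes of an isozyme pair with non-overlapping shares, and others by range, apart from the genes named as exceptions. From the pathway lists, up to 2 genes per list and direction that moved by more than 1 on the log2 scale at an unadjusted p under 0.05 are named. Some genes of the pathway and marker lists are not reported here, though they remain in the counts and sums. Neutrophil markers (9 genes, led by S100a8) summed to 194, 168 and 103 CPM in castrated and 104 and 125 CPM in intact tumors, and T cell markers (7 of 8 in the table, led by Cd3g) to 19.9, 56.9 and 57.8 CPM against 13.1 and 40.2 CPM. Alternatives were DESeq2 1.42.0, 2 other scalings, 2 other filters, the older quasi-likelihood fit, the likelihood ratio test, limma-trend (limma 3.58.1) on log2(TPM + 1), the replicate block, and leaving out each replicate, which was extended to the named pathway genes and to the medians by role after seeing the data. Promoter sequences and their coordinates are from RefSeq on GRCm38.p6, and coordinates count from 1.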

Additional observations from a re-analysis of the deposited data

How the results depend on the processing

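After Benjamini-Hochberg adjustment edgeR's quasi-likelihood test called 0 genes (1277 higher and 918 lower by unadjusted p), DESeq2 called 989 and the likelihood ratio test 369, and leaving out a replicate gave 0 to 1. Fits that leave 1 intact sample assume that it varies like the castrated samples. At an unadjusted p, higher genes ranged from 629 to 1771 and lower genes from 382 to 1521 without 1 replicate, and 516 were lower with limma-trend. Lower members at an unadjusted p numbered 2 with DESeq2 and 0 with library size only, the older quasi-likelihood fit, the likelihood ratio test and limma-trend. Leaving out a replicate gave 0 to 5 higher members, 0 to 11 lower members, 3 to 11 lying above and 5 to 23 lying below. The 5 higher (14.3%, 12.2% of all genes) and 11 above (31.4%, 35.3% of all genes) came without intact replicate 1. The 11 lower (32.4%, 6.62% of all genes) and 23 below (65.7%, 31.6% of all genes) came without intact replicate 2, when intact replicate 1 is the sole intact sample. With library size only, 3 members lay below.

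Same-numbered samples are different mice. Their deviations correlated weakly for replicate 1 (0.173) and not for replicate 2 (-0.0324), and the numbers were not taken as pairs. The replicate block, in which castrated replicate 3 has no partner, gave 778 higher and 268 lower genes and 1 higher and 0 lower members. Under the block the sign reversed for Slc2a1 (0.12), Hk1 (0.12), Aldoa (0.06), Pgam1 (0.02), Pkm (0.20), Pfkfb3 (0.13) and Pklr (-0.03). With limma-trend it reversed for Slc2a1 (0.10), Hk1 (0.12), Aldoa (0.05), Pkm (0.03), Pfkfb3 (0.20) and Egln3 (0.23), and with CPM above 1 in all samples for Hk1 (0.02). The unadjusted p under the block was 0.0788 for Epas1, 0.15 for Pgk1 and 0.00842 for Aldoc. The cause was not tested.

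Without 1 replicate the glycolytic median ranged from -0.46 to 0.29 and the hypoxia median from -0.87 to 0.30. The flux regulator median ranged from -0.61 to -0.0. Log2 fold changes ranged over 0 for Slc2a1 (-0.87 to 0.85), Hk1 (-0.40 to 0.46), Hk2 (-1.69 to 0.95), Gpi1 (-0.50 to 0.18), Pfkp (-0.80 to 0.28), Aldoa (-0.29 to 0.15), Gapdh (-0.70 to 0.08), Pgam1 (-0.46 to 0.07), Pkm (-0.40 to 0.29), Slc16a3 (-1.31 to 0.46), Pfkfb3 (-1.08 to 1.35), Pfkfb4 (-1.0 to 0.79), Egln1 (-0.65 to 0.08), Egln3 (-1.15 to 1.41), Car9 (-2.96 to 0.97) and Adm (-1.82 to 0.52). By role, medians without intact replicate 2 and without intact replicate 1 were -0.64 and 0.90 for glucose entry, -0.50 and 0.17 for upper glycolysis, -0.43 and 0.29 for lower glycolysis, -0.58 and 0.09 for lactate, -0.70 and 0.75 for oxygen sensing and -1.21 and 0.14 for hypoxia targets outside glycolysis. For the regulators of flux they were -0.46 and -0.0. With all samples the glycolytic median was 0.01 with limma-trend and within 0.01 of 0 under the replicate block. The differences in share ranged, in percentage points, from -20.4 to 6.62 for Hk2, -6.43 to 3.65 for Pfkp, -15.8 to 12.6 for Slc16a3, -33.5 to -16.6 for Hif1a, -7.46 to -3.42 for Aldoa and -7.46 to -2.94 for Ldha. Signs reversed for 15 members without intact replicate 1, 4 without castrated replicate 3, 1 without castrated replicate 2, 1 without intact replicate 2 and 0 without castrated replicate 1. The sign of 19 of 35 members held in each fit without a replicate in which they were tested (Pklr fell below the filter in 2 of them), and that of 27 in all 9 other settings.

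As given above, the intact samples differed 2-fold or more for 12 of 35 members, a share near the 31.4% of all genes tested.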
